A study of Mus musculus with 4 samples.

Results

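The CC chemokine ligand genes Ccl2, Ccl3, Ccl4, Ccl5, Ccl6, Ccl7, Ccl9 and Ccl22 were described in mouse RNA-seq libraries labelled as myeloid cells. They were taken by gene name, and all 8 were found among the 24706 genes of each library. The 4 libraries comprise 2 labelled wt and 2 labelled cko. According to the study, both groups carry LoxP sites beside an exon of Pdcd1, which encodes PD-1, and the cko mice (PD-1f/f; LysM-Cre) also carry a Cre recombinase of myeloid cells. As background, LysM-Cre is inserted at the lysozyme locus Lyz2, which is active in monocytes, macrophages and granulocytes. The controls are named PD-1f/f in the figures and wild type in the methods. The study describes the material both as CD11b+ cells sorted from liver at postnatal day 3 and as whole fetal livers at postnatal day 2. The labels read myeloid cells, as in the first account, but give neither the sorting nor the day. Hepatocyte markers summed to between 43.0 and 102 FPKM per library, and neutrophil markers to between 90247 and 159793 FPKM. Neither the genetic background of the floxed animals nor pooling of animals is stated for these libraries, and the labels do not say whether the libraries of a group came from separate animals. The sex-linked transcripts given below differed between the wt libraries, so these did not come from the same animal, whereas for the cko libraries this is not known. The p-values measure the spread between these libraries, which in cko may be technical.

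CC chemokines are small secreted proteins with adjacent cysteines near the N-terminus. They act on G protein-coupled receptors of leukocytes and direct the migration of monocytes, granulocytes, lymphocytes and dendritic cells. In myeloid cells several of them are inducible by microbial products and cytokines, largely through NF-κB, whereas Ccl6 and Ccl9, which are known from rodents, are expressed in resting myeloid cells. Ccl2 and Ccl7 are monocyte attractants that act through Ccr2, Ccl4 and Ccl5 attract lymphocytes and monocytes, Ccl3, Ccl6 and Ccl9 act through Ccr1, and Ccl22 is a ligand of Ccr4 on T cells.

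Expression was deposited as FPKM, a level per kilobase of transcript that is also corrected for the depth of each library. The libraries held between 17691505 and 22212407 counted reads, as worked out from the FPKM steps. Counts are also given as RPM, the counted reads corrected for depth but not for length, with exact 95% Clopper-Pearson limits, and these limits reflect counting error alone. Pdcd1, the targeted gene, stood at 28.5 and 34.7 FPKM in wt and at 17.1 and 21.4 FPKM in cko libraries. Lyz2, the gene at which Cre is inserted, was lower by 1.79 on the log2 scale in cko. Wt replicate 2 stood apart in sex-linked transcripts, with 24.9 FPKM of the Y-linked Ddx3y against at most 0.00866 FPKM in the others and almost no Xist (0.0119 against 4.91 to 7.98 FPKM). Cko replicate 2 stood apart in the CC ligands themselves, and log2 fold changes of the members are given with and without these libraries. Defining myeloid markers were present in every library, and T cell, NK cell, erythroid and hepatocyte transcripts were detected as well. In bulk libraries fewer cells of a type and less RNA per cell cannot be told apart.

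Of the 8 genes, 7 lie on chromosome 11 and Ccl22 lies on chromosome 8 (GRCm38, positions identical to GENCODE M21 for all 8). Ccl2 (ENSMUSG00000035385, positions 82035571 to 82037453, plus strand) and Ccl7 (ENSMUSG00000035373, 82045712 to 82047525, plus strand) are separated by 8258 bases. The second group begins 1478252 bases further on. It holds Ccl5 (ENSMUSG00000035042, 83525778 to 83530518, minus strand), Ccl9 (ENSMUSG00000019122, 83572919 to 83578636, minus strand), Ccl6 (ENSMUSG00000018927, 83587882 to 83593087, minus strand), Ccl3 (ENSMUSG00000000982, 83647844 to 83649355, minus strand) and Ccl4 (ENSMUSG00000018930, 83662584 to 83664683, plus strand). Ccl22 (ENSMUSG00000031779) extends from 94745590 to 94751699 on the plus strand of chromosome 8. The principal transcripts of Ccl6 and Ccl9 have 4 exons and those of the other members have 3. Within the annotated transcripts, no window of 50 bases in Ccl2, Ccl3, Ccl4, Ccl5, Ccl6, Ccl7 or Ccl22 occurred in a transcript of another gene, and in Ccl9 59 of 2996 windows (1.97%) did. Gm17268 overlaps Ccl2 and E230016K23Rik overlaps Ccl6, in both cases on the opposite strand and with 0 bases of shared exon. Gm17268 held 4 reads in cko replicate 2 and 0 in the other libraries, and E230016K23Rik held 46 and 21 reads in wt and 22 and 1 in cko.

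Promoter windows from RefSeq (GRCm38.p6), from 250 bases before to 50 bases after the annotated start, matched 4 members by symbol, namely Ccl3, Ccl6, Ccl9 and Ccl22. Those of Ccl3, Ccl6 and Ccl9 are shown because these neighbouring genes differed in how far cko libraries departed from wt libraries, and each is written 5′ to 3′ along the gene, with any match to the NF-κB consensus (searched on both strands) in capitals. They are chr11:83649329-83649628, chr11:83593038-83593337 and chr11:83578587-83578886, all on the minus strand.
Ccl3: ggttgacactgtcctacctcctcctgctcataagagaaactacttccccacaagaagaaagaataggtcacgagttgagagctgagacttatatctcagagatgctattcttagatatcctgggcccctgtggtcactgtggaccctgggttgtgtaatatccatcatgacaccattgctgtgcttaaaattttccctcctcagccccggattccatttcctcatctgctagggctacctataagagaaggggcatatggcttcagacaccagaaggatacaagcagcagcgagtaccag
Ccl6: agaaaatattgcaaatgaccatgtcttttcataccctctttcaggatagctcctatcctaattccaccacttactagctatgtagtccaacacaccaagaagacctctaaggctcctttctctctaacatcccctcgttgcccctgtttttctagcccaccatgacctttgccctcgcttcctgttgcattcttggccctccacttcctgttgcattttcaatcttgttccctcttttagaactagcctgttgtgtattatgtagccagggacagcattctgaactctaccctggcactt
Ccl9: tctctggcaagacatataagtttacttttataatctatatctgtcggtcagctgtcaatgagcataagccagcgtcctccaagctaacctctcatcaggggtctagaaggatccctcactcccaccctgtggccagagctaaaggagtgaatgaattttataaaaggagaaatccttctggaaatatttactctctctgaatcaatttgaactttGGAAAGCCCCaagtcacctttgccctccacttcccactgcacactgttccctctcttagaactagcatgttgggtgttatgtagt
Of these 3 windows that of Ccl9 alone held a match, on the opposite strand and beginning at position -35 from the start, and the Ccl22 window held 0. Across 32851 promoter windows of the same length, 8.46% held at least 1 match. A match describes the letters alone, and a missing match says only that these letters are not in the window.

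The 8 transcripts spanned a wide range of levels, and their order was led by Ccl6 in wt libraries. By mean FPKM in wt the order was Ccl6, Ccl3, Ccl2, Ccl9, Ccl4, Ccl5, Ccl7 and Ccl22. Ccl6 and Ccl3 were separated from the next gene by the values of both libraries, and so was Ccl9 from Ccl4. Ccl2 and Ccl9 overlapped, as did Ccl4 with Ccl5, Ccl5 with Ccl7 and Ccl7 with Ccl22. In cko the order was Ccl6, Ccl3, Ccl2, Ccl9, Ccl4, Ccl7, Ccl5 and Ccl22, and each gene overlapped the next one except Ccl7 and Ccl5.

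**Figure D1:**
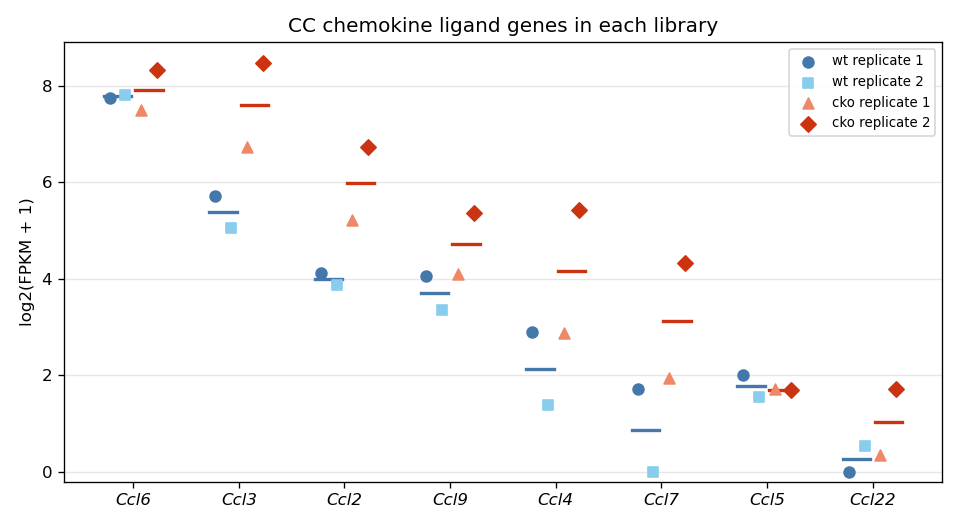
Level of each of the 8 CC ligand genes as log2(FPKM + 1) on the vertical axis, with 1 point for each library and a horizontal bar for the mean of each group of 2. Cko replicate 2 is the highest point for every gene except Ccl5, whose 4 points lie between 1.94 and 3.05 FPKM.

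Ccl2, the main attractant of Ccr2-bearing monocytes, was higher in both cko libraries. It stood at 16.4 and 13.7 FPKM in wt replicates 1 and 2 (414 and 293 reads) and at 36.1 and 106 FPKM in cko replicates 1 and 2 (771 and 2134 reads). The groups did not overlap, and the wt libraries differed by only 1.20-fold. Relative to the wt mean of 15.03 ± 1.91 FPKM (SD, n = 2), the level was 2.41-fold in cko replicate 1 and 7.05-fold in cko replicate 2. In limma on log2(FPKM + 1), a scale on which changes of low genes are understated, the log2 fold change (log2FC, cko over wt) was 1.98 ± 0.48 (SE, adjusted p = 0.214). Its unadjusted p of 0.00740 passed the threshold of the study's volcano plot (|log2FC| above 1 with an unadjusted p under 0.01).

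Ccl7, which attracts monocytes like its neighbour Ccl2, was much lower in level. It stood at 2.30 FPKM in wt replicate 1 (41 reads) and was not detected in wt replicate 2, where 0 reads allow up to 0.199 FPKM (taken as 3 reads in that library). In cko replicates 1 and 2 it stood at 2.86 and 19.0 FPKM (43 and 269 reads). Both cko values lay above both wt values, although cko replicate 1 and wt replicate 1 could not be separated by counting error, at 2.29 (1.66 to 3.09) and 1.85 (1.32 to 2.50) RPM. The log2FC was 2.27 ± 0.90 (SE, adjusted p = 0.299), with an unadjusted p of 0.0474 that did not pass the threshold.

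Ccl3, an inflammatory ligand of Ccr1, had the largest difference in FPKM of the 8 genes. It stood at 51.4 and 32.4 FPKM in wt replicates 1 and 2 (874 and 467 reads) and at 106 and 355 FPKM in cko replicates 1 and 2 (1519 and 4816 reads). The groups did not overlap, with cko replicates at 2.53-fold and 8.49-fold of the wt mean of 41.9 ± 13.4 FPKM (SD, n = 2). By rank among all genes of a library, Ccl3 held places 895 and 1412 in wt and places 440 and 114 in cko. The log2FC was 2.22 ± 0.57 (SE, adjusted p = 0.214), and its unadjusted p of 0.00928 passed the volcano plot threshold.

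Ccl4, an inflammatory chemokine of activated macrophages, did not separate the groups. It had 6.41 and 1.61 FPKM in wt replicates 1 and 2 (94 and 20 reads), against 6.39 and 42.1 FPKM in cko replicates 1 and 2 (79 and 492 reads). Cko replicate 1 thus equalled wt replicate 1 within counting error, at 4.22 (3.34 to 5.25) against 4.23 (3.42 to 5.18) RPM. The difference rested on cko replicate 2, with a log2FC of 2.02 ± 0.90 (SE, adjusted p = 0.339). The ratio of Ccl3 to Ccl4 was 8.01 and 20.1 in wt and 16.6 and 8.43 in cko, so that these values of both groups overlapped.

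Ccl5, a ligand of Ccr1 that T cells and NK cells also make, did not separate the groups. It had 3.05 and 1.94 FPKM in wt replicates 1 and 2 (65 and 35 reads), against 2.28 and 2.24 FPKM in cko replicates 1 and 2 (41 and 38 reads). Both cko values lay between the wt values. The log2FC was -0.082 ± 0.24 (SE, adjusted p = 0.892).

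Ccl6, the most abundant CC ligand transcript in wt libraries, differed between the cko libraries more than between the groups. It had 214 and 224 FPKM in wt replicates 1 and 2 (8524 and 7584 reads) and ranked 177 and 172 among all genes. In cko it had 180 FPKM in replicate 1 (6046 reads) and 320 FPKM in replicate 2 (10156 reads), below and above both wt values. The log2FC was 0.13 ± 0.28 (SE, adjusted p = 0.843), and it was 0.011 after median-of-ratios scaling and -0.037 after quantile normalization.

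Ccl9, the Ccr1 ligand next to Ccl6, had 15.6 and 9.28 FPKM in wt replicates 1 and 2 (1056 and 532 reads). In cko replicates 1 and 2 it had 16.2 and 39.9 FPKM (924 and 2151 reads). Both cko values lay above both wt values, but cko replicate 1 and wt replicate 1 had overlapping counting intervals, at 49.3 (46.2 to 52.6) and 47.5 (44.7 to 50.5) RPM. The log2FC was 1.02 ± 0.45 (SE, adjusted p = 0.336).

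Ccl22, which dendritic cells and macrophages make, was near the limit of detection. It had 0 reads in wt replicate 1, which allow up to 0.0581 FPKM (again 3 reads), and 0.457 FPKM in wt replicate 2 (20 reads). In cko replicates 1 and 2 it had 0.275 and 2.29 FPKM (12 and 94 reads), so that the groups overlapped. Its mean of 0.754 FPKM was below the minimum of 1 FPKM for testing. With no filter on low values its log2FC was 0.76 ± 0.53 (SE, adjusted p = 0.674 from limma).

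Of the 8 members, 7 passed the filter on low values, and each of these also had a wt mean above 1 FPKM. At the threshold of the study's methods (|log2FC| of at least 1 with an adjusted p under 0.05), 0 of the 7 members passed in limma, beside 0% of the 10779 genes tested that were called higher, and 0 members passed with voom on recovered reads, where 2 of 12533 genes did. At the volcano plot threshold 2 of 7 members were higher, Ccl2 and Ccl3, where 1.88% of all tested genes were, and 0 members were lower, where 0.408% of genes were. Both calls were lost with no filter on low values and with no trend in the limma prior, and that of Ccl3 also after median-of-ratios scaling and with the replicate number as a block, with adjusted p between 0.128 and 0.465 for the pair over all settings that kept the 4 libraries. By an unadjusted p under 0.05 alone, 3 members were higher, against 11.4% of genes. Both cko libraries lay above both wt libraries for 4 of 7 members (Ccl2, Ccl3, Ccl7 and Ccl9), against 33.6% of genes, and 0 members had both cko libraries below both wt libraries, against 18.0%. The log2FC was above 0 for 6 of 7 members, against 60.4% of genes. The median log2 fold change of the 7 members was 1.98, beside 0.092 over all genes tested. The members were chosen with earlier results of these data known, so these contrasts with all genes are descriptions without a test. With 2 libraries per group, an exact two-sided permutation test of 1 gene cannot give a p below 0.333.

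**Figure D2:**
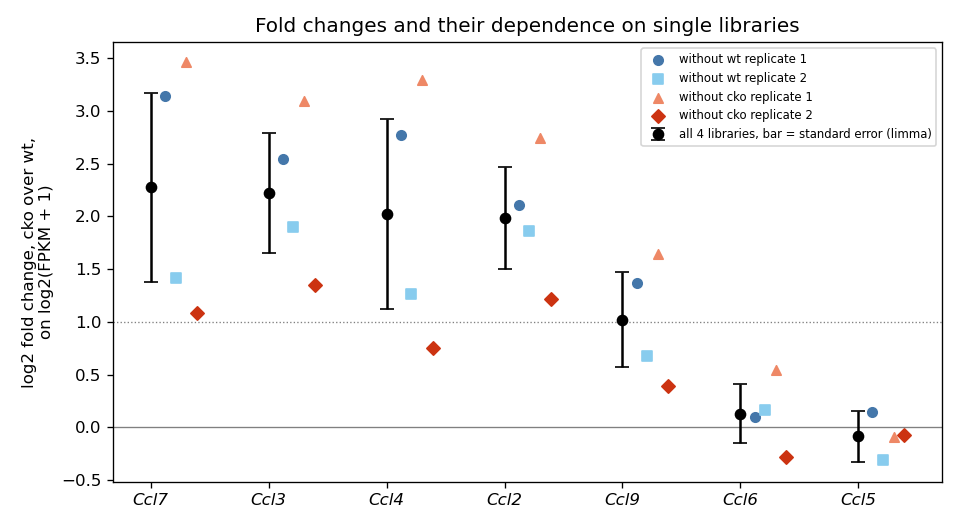
Log2 fold change of cko over wt on log2(FPKM + 1) for the 7 tested members, as black points with limma standard errors, and coloured points for the same fit with 1 library left out. Without cko replicate 2 the value of every member except Ccl5 is lower, and Ccl2, Ccl3 and Ccl7 remain above 1.

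The size of these differences was carried largely by cko replicate 2. This library was the highest of the 4 for 6 of 7 tested members, where it was the highest for 33.8% of all tested genes, and it exceeded cko replicate 1 in the same 6 members, against 51.2% of genes. It exceeded cko replicate 1 by more than 2-fold in FPKM for 5 of the 7, namely 2.93-fold for Ccl2, 3.36-fold for Ccl3, 6.60-fold for Ccl4, 6.63-fold for Ccl7 and 2.47-fold for Ccl9, against 5.66% of genes. Relative to the wt mean, the median of the 7 members on log2(FPKM + 1) was 0.75 in cko replicate 1 and 2.74 in cko replicate 2, whereas the medians over all genes were 0.091 and 0.095. Without cko replicate 2 the log2 fold changes were 1.22 for Ccl2, 1.35 for Ccl3, 0.75 for Ccl4, 1.09 for Ccl7, 0.40 for Ccl9 and -0.28 for Ccl6. With 1 cko library left, the error of this fit came from the wt libraries alone. It holds no spread between cko libraries, so only the sizes are given here. Wt replicate 2, the library with Y-linked transcripts, was the lowest of the 4 for Ccl2, Ccl3, Ccl4, Ccl5, Ccl7 and Ccl9. Without it Ccl2 stood at 1.86, Ccl3 at 1.90, Ccl4 at 1.27 and Ccl7 at 1.41. Ccl9, Ccl6 and Ccl5 then stood at 0.68, 0.16 and -0.31, and the median of the 7 members was 1.27.

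The makeup of the CC ligand pool restates the levels above as shares of 1 sum. Summed over the 15 CC ligand genes in the files, the level was 314 and 286 FPKM in wt replicates 1 and 2 and 355 and 904 FPKM in cko replicates 1 and 2. The 8 members held between 98.1% and 99.2% of this sum. Ccl6 alone held 68.0% and 78.4% of it in wt but 50.6% and 35.4% in cko. The share of Ccl3 was 16.3% and 11.3% in wt and 29.8% and 39.3% in cko, and that of Ccl2 was 5.21% and 4.78% in wt and 10.2% and 11.7% in cko. For these 3 genes the shares of the groups did not overlap, which is given without a test. Of the 15 genes, Ccl5, Ccl7, Ccl12, Ccl17 and Ccl25, with smaller shares, did not overlap either. Beside this, 33.6% of all genes tested were higher and 18.0% were lower in both cko libraries by FPKM. A lack of overlap is thus common with 2 libraries per group. Shares of 1 sum depend on each other, and the FPKM of Ccl6 itself overlapped between the groups. Ccl3 exceeded Ccl6 in cko replicate 2 only, where the ratio of Ccl6 to Ccl3 was 0.900, against 4.16 and 6.93 in wt and 1.70 in cko replicate 1.

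**Figure D3:**
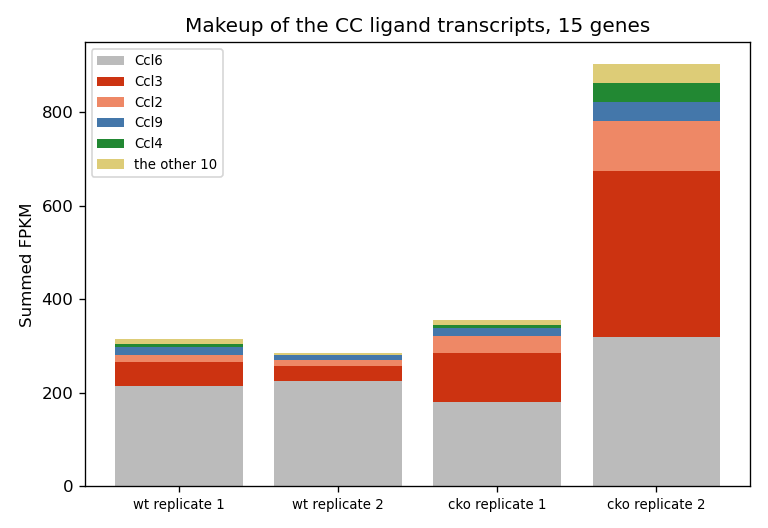
Summed FPKM of the 15 CC ligand genes in each library (vertical axis), stacked by gene. Ccl6 (grey) is the largest part in both wt libraries and in cko replicate 1, and Ccl3 (red) is larger than Ccl6 in cko replicate 2, whose sum of 904 FPKM exceeds the others at 286 to 355 FPKM.

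Along chromosome 11 the differences did not follow gene order in a simple way. Within the second group Ccl5 had a log2FC of -0.082, Ccl9 and Ccl6 had log2 fold changes of 1.02 and 0.13, and Ccl3 and Ccl4 had 2.22 and 2.02, although Ccl6 and Ccl9 are only 9245 bases apart. Ccl3 and Ccl4 lie 13228 bases apart on opposite strands. The next expressed gene beyond Ccl4 was Wfdc17, a member of the whey acidic protein family. It had 54.5 and 37.0 FPKM in wt replicates 1 and 2 and 79.0 and 226 FPKM in cko replicates 1 and 2, with a log2FC of 1.55 ± 0.50 (SE, adjusted p = 0.251 from limma) that became 0.80 without cko replicate 2. On the other side of Ccl5, Taf15 had 7.20 and 8.66 FPKM in wt and 10.2 and 8.62 FPKM in cko, and Heatr9 stayed at or below 0.198 FPKM. The pseudogenes Gm11430 and Gm11429 and the gene Wfdc18 reached only 6, 4 and 13 reads in their highest library. Beside Ccl22, Cx3cl1 had at most 1 read and Ccl17 at most 6.

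**Figure D4:**
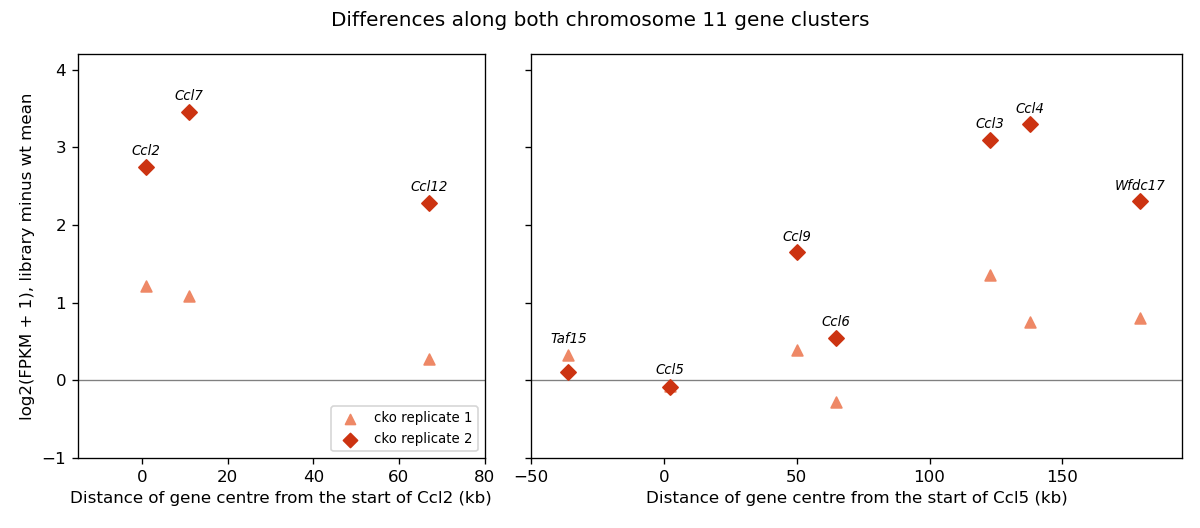
Difference of each cko library from the wt mean on log2(FPKM + 1) (vertical axis) against the distance of the gene centre, in kb, from the start of Ccl2 (left) or from the low-coordinate end of Ccl5 (right), for genes averaging 1 FPKM or more within the distances shown. Of the 10 genes drawn, cko replicate 2 lies above cko replicate 1 for all except Ccl5, whose points coincide, and Taf15.

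Among the other CC ligands, 7 of the 16 genes listed were in the files and 2 were tested, Ccl12 and Ccl24. Ccl12, a mouse monocyte attractant beside Ccl7, had 0.335 FPKM in wt replicate 1 and 0 in wt replicate 2 (4 and 0 reads) and 0.397 and 4.63 FPKM in cko replicates 1 and 2 (4 and 44 reads). It passed the filter through the cko group alone, and its log2FC was 1.28 ± 0.67 (SE, adjusted p = 0.393) and became 0.27 without cko replicate 2. Ccl24, an eosinophil attractant made by macrophages, had 4.03 and 1.31 FPKM in wt replicates 1 and 2 and 3.96 and 10.999 FPKM in cko replicates 1 and 2. The groups overlapped, and the log2FC was 1.18 ± 0.54 (SE, adjusted p = 0.347) and became 0.54 without cko replicate 2. The remaining 5 had means below 1 FPKM.

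The receptors of these ligands were expressed at very different levels. Ccr1, the receptor of Ccl3, Ccl6 and Ccl9, was the most abundant, with 277 and 253 FPKM in wt replicates 1 and 2 and 277 and 424 FPKM in cko replicates 1 and 2. Its log2FC was 0.37 ± 0.23 (SE, adjusted p = 0.449). Ccr2, the receptor of Ccl2 and Ccl7, had 25.0 and 20.01 FPKM in wt and 20.5 and 34.0 FPKM in cko, with a log2FC of 0.23 ± 0.27 (SE, adjusted p = 0.689). The groups overlapped for both receptors, and cko replicate 2 was the highest library in each. Without it the log2FC was 0.062 for Ccr1 and -0.12 for Ccr2. Ccr4, the receptor of Ccl22, had at most 3 reads in any library.

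Of the 4 atypical receptors in the list, which bind ligands without coupling to G proteins, Ccrl2 and Ackr1 were tested. Ccrl2, an inducible receptor that binds chemerin, had 14.3 and 7.95 FPKM in wt replicates 1 and 2 and 38.5 and 174 FPKM in cko replicates 1 and 2. Its log2FC was 2.83 ± 0.70 (SE, adjusted p = 0.214), and it passed the volcano plot threshold. The log2FC of Ccrl2 was 1.76 without cko replicate 2 and 2.44 without wt replicate 2, and each of these fits leaves 1 library in a group. Ackr1, a chemokine scavenger of erythroid and venular cells, had 6.12 and 4.35 FPKM in wt and 2.85 and 6.12 FPKM in cko, and the groups overlapped (log2FC -0.24 ± 0.34, SE, with adjusted p = 0.751). Of 17 genes of receptor signalling (inhibitory G proteins, arrestins, receptor kinases, RGS proteins, PI3 kinase gamma and regulators of the cytoskeleton), 0 passed either threshold in limma. By an unadjusted p under 0.05, 1 was higher and 2 were lower, where 11.4% and 4.95% of all genes were, and their median log2FC was 0.076.

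**Figure D5:**
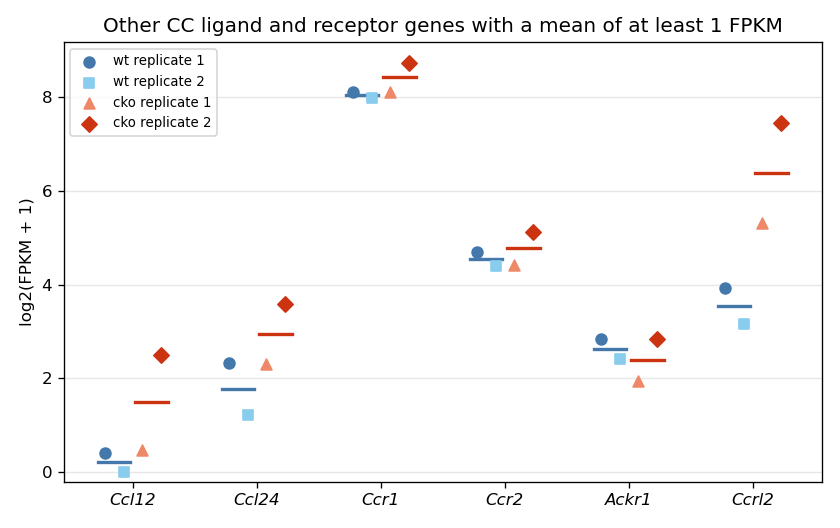
Level of the other CC ligand and receptor genes averaging 1 FPKM or more as log2(FPKM + 1) (vertical axis), with 1 point for each library and a horizontal bar for the group mean. Only Ccrl2 and Ccl12 have both cko points above both wt points, as had 33.6% of all genes tested. For Ccl12, wt replicate 1 and cko replicate 1 held 4 reads each.

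Markers of cell types that can make these ligands did not all move with them. Beside the marker counts here, 33.6% of all genes tested were higher and 18.0% were lower in both cko libraries. Of 6 monocyte markers, all tested, 2 were higher and 1 was lower in both cko libraries, and their summed level was 461 to 482 FPKM in wt and 473 and 591 FPKM in cko replicates 1 and 2. Of 10 macrophage markers in the files, 9 were tested and 1 was higher in both cko libraries, with sums of 385 and 263 FPKM in wt and 265 and 447 FPKM in cko. Both sums were highest in cko replicate 2, the library highest in Ccl2, Ccl3, Ccl4, Ccl7 and Ccl9, but single markers differed. Ly6c2, the most abundant monocyte marker, was lowest there, at 315 FPKM against 333 to 360 FPKM, and the other monocyte markers were highest there. Of the macrophage markers, Clec4f, Vsig4, Timd4 and C1qb were highest in wt replicate 1, Mertk in cko replicate 1 and the others in cko replicate 2. The part of both lists in these differences was not tested. Of 10 neutrophil markers, 7 were lower and 2 were higher in both cko libraries, and their sum was 159793 and 135607 FPKM in wt and 108541 and 90247 FPKM in cko. The part of this shift in the values of Ccl6 and Ccl9, which neutrophils also express, was not tested.

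Markers of lymphoid and dendritic cells were detected at varied levels. The counts of markers lower in both cko libraries stand beside 18.0% of all genes tested. Of 8 T cell markers, 7 were in the files and 2 were tested, both of them lower in both cko libraries. Cd3e, Cd3g, Cd4, Cd5 and Thy1 stayed below 1 FPKM throughout, and the list summed to 8.65 and 9.85 FPKM in wt and 5.51 and 4.54 FPKM in cko. NK cell markers summed to 69.0 and 43.6 FPKM in wt and 34.4 and 31.6 FPKM in cko, with 3 of 5 tested markers lower in both cko libraries. B cell markers summed to 52.6 and 66.9 FPKM in wt and 33.6 and 43.2 FPKM in cko, with all 5 tested markers lower in both cko libraries. The part of these lymphoid markers in the level of Ccl5 was not tested. The 8 dendritic cell markers summed to 13.4 and 17.5 FPKM in wt and 12.5 and 16.5 FPKM in cko, most of it from H2-Ab1, and Cd209a, Clec9a, Flt3, Siglech, Xcr1 and Zbtb46 were below 1 FPKM in every library. Cko replicate 2, the library highest in Ccl22, was also the highest in Itgax (3.17 FPKM against 0.506 to 0.852 FPKM) and Xcr1 (0.457 FPKM). The rest of the list peaked elsewhere, H2-Ab1 and Clec9a in wt replicate 2, Flt3 and Cd209a in wt replicate 1, and Zbtb46 and Siglech in cko replicate 1. The part of these markers in the level of Ccl22 was not tested. No marker in the lists above was at 0 in all 4 libraries. Erythroid markers summed to 3714 and 2334 FPKM in wt and 1416 and 1515 FPKM in cko, with 8 of 9 lower in both cko libraries, and hepatocyte markers summed to 60.4 and 102 FPKM in wt and 43.0 and 52.6 FPKM in cko. Removal of erythroid and hepatocyte list genes with rescaling to 1 total moved Ccl2 to 2.18, Ccl3 to 2.43 and the median of all genes to 0.26. The rescaling also evens out total FPKM, which before removal was 491983 and 457127 in wt and 412778 and 403900 in cko replicates 1 and 2. Removal and rescaling were not tested apart.

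Patterns over the 4 libraries were compared with the mean of the tested members, on log2(FPKM + 1) values centred on the mean of each gene. The nearest genes by Euclidean distance were Adora2b (distance 0.0891), Gadd45b (0.159), Cd14 (0.197), Il13ra1 (0.209) and Fam26f (0.214). The mean pattern of the members was -0.31 and -1.06 in wt replicates 1 and 2 and -0.048 and 1.41 in cko replicates 1 and 2. Adora2b, an adenosine receptor, had 8.13 and 4.41 FPKM in wt and 10.03 and 27.1 FPKM in cko. Cd14, the lipopolysaccharide co-receptor of monocytes and macrophages, had 123 and 65.0 FPKM in wt and 151 and 439 FPKM in cko. All 5 had both cko libraries above both wt libraries, but so has the mean pattern by which they were chosen, so this is no separate result. This likeness is over 4 libraries and is a description without a test.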

How the data were processed

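RNA-seq was analysed for 4 libraries, grouped as wt and cko by their labels, with 2 libraries each. The authors deposited 1 FPKM value per gene and library, called RPKM in the methods, without scaling between libraries. Per the labels, the submitters' processing notes name Bowtie2 2.2.3, TopHat2 2.0.12, HTSeq 0.6.0 and mm9 without roles, whereas the positions in the files were identical to GENCODE M21 (GRCm38) for 92.61% of genes. Strandedness is not given in the sources used here. Reads were recovered from FPKM, annotated exon lengths and library totals, and came out whole in all libraries, within 0.02 of a read, for 91.29% of genes, all members included. A count test on deposited counts was not run, since the unit was FPKM.

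The limma-trend model (limma 3.58.1, R 4.3.3) compared cko with wt on log2(FPKM + 1), with no covariate, over the 10779 genes averaging 1 FPKM or more. Benjamini-Hochberg adjustment covered all of these genes, and the fit was tested on simulated reads. The simulated reads had the same relative spread for every gene, taken from the wt libraries. They do not cover a spread like that of the members between the cko libraries. Alternatives covered the pseudocount, the filter, scaling, the trend, a block for the replicate number, voom on 12533 genes averaging 10 recovered reads or more, and each library left out in turn. The members and gene lists were chosen with earlier results of these data known. Named genes are the members, other CC ligands and receptors averaging 1 FPKM or more, signalling genes past the volcano plot threshold, cluster neighbours and the 5 genes of most similar pattern. Genes stated to be untested or markers given by name were chosen after their values were seen. Python 3.11.15 was used for tables and matplotlib 3.10.9 for figures.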

Additional observations from a re-analysis of the deposited data

How the results depend on the processing

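The number of members past |log2FC| of at least 1 with an adjusted p under 0.05 was 0 under each of the 13 alternatives. The number past the volcano plot threshold, 2 with all 4 libraries, was 0 with no filter on low values and 0 without a trend, and it was 1 (Ccl2) after median-of-ratios scaling. Over the 4 fits that each left out a library it ranged from 0 to 4, with 4 (Ccl2, Ccl3, Ccl4 and Ccl9) without cko replicate 1, 1 (Ccl2) without cko replicate 2 and 0 without either wt library, where the lone library of a group is assumed to vary like the other group. The median of the members ranged from 0.75 to 2.74 over these fits.

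Ccl2 stayed at 1.98 with no filter and without a trend, and Ccl3 at 2.22, and both fell outside the threshold there. Ccl3 also fell outside it at 2.10 after median-of-ratios scaling. Across the omissions of 1 library the log2 fold change ranged from 1.22 to 2.74 for Ccl2, from 1.35 to 3.09 for Ccl3, from 0.75 to 3.29 for Ccl4, from 1.09 to 3.46 for Ccl7, from 0.40 to 1.65 for Ccl9, from -0.31 to 0.15 for Ccl5 and from -0.28 to 0.54 for Ccl6. Ccl5 changed sign to 0.069 with erythroid and hepatocyte genes removed and each library rescaled to the same total, and Ccl6 to -0.037 after quantile normalization. The causes were not tested. Ccl7 stood at 3.94 with a pseudocount of 0.1 and at 4.50 by voom, and Ccl22 at 3.75 by voom, with adjusted p-values between 0.181 and 0.571 for Ccl7 over the settings with all libraries. Of 130 values under alternatives, which cover the counts of members called, the median and the single log2 fold changes, 103 stayed the same. For a single fold change this means the same direction and call, and for the counts and the median a value within a set margin. A fold change that was not called thus counts as the same at any size with the same sign. Ccl4, for example, did so at 2.02 with all libraries and 0.75 without cko replicate 2. The tally therefore does not describe how far the sizes moved. The omission of wt or cko replicate 2 for 7 other named genes was chosen after seeing the data. Ccr2 changed sign there, from 0.079 to -0.12 over these omissions, and Ccrl2 stood at 2.44 without wt replicate 2.

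The labels give both groups the replicate numbers 1 and 2 but do not say that they pair the libraries, and the differences between replicates 1 and 2 in the groups had a correlation of -0.16 across genes. With the replicate number as a block, 1 member passed the volcano plot threshold (Ccl2, at 1.98) and Ccl3, at 2.22, did not, with 215 higher and 43 lower genes in all. Over all genes, 203 higher and 44 lower passed the volcano plot threshold. This became 142 and 72 after median-of-ratios scaling and 148 and 73 after quantile normalization. It was 348 and 18 with erythroid and hepatocyte genes removed and each library rescaled to the same total. Depth limits Ccl22 and Ccl7 most, with 0 reads in 1 wt library each.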
